A study of Mus musculus with 3 samples.

Results

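The 38 genes described here encode the proteins of epithelial cell junctions and of the apical domain: 5 of the adherens junction, 10 of the desmosome, Epcam with 9 claudins, 6 other membrane proteins of the tight junction, 3 of its cytoplasmic plaque, 2 of the apical polarity complexes and 2 integrins of the hemidesmosome. They were picked by name, with earlier results of these data known. Every non-control probe whose accession is a transcript of one of them was taken, which gave 46 probes for 38 of the 20637 genes that could be read. Expression was measured with single-colour Agilent arrays in mouse cells that the labels call embryonic stem cells (mESCs), in 3 groups: LIFR KO, gp130 KO and wildtype. The cytokine LIF binds LIFR, which signals through gp130, the product of the Il6st gene. Each group was 1 array, so nothing could be tested, no spread between cultures is known, and each difference is one between arrays. The labels give no strain, no clone and no way in which the knockouts were made, and all groups were grown under the same standard conditions.

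Epithelial cells are held together by adherens junctions, in which cadherins bind catenins that link to actin, and by desmosomes, in which desmosomal cadherins are tied through plakoglobin, plakophilins and desmoplakin to keratin filaments. Tight junctions, built from claudins, occludin-like proteins and immunoglobulin-like proteins on a ZO and cingulin plaque, seal the space between cells, while the Crumbs and Par complexes set the apical side. Mouse embryonic stem cells are themselves an epithelium-like cell type, and E-cadherin joins them into compact colonies.

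A signal is the scanner software's processed brightness of a probe, and signals of different probes cannot be set against each other. Before a ratio was taken, each signal was divided by the 75th percentile of its array, which was 750 on the LIFR KO array, 652 on the gp130 KO array and 664 on the wildtype array, so the quotient of the printed signals differs a little from the printed ratio. The ± beside a log2 ratio is the 95% half-width that the scatter of repeated spots on the arrays gives, a technical error without any spread between cultures. The median half-width over the measured genes was 0.12 in each knockout against wildtype. The scanner software's own error of the LIFR KO ratio, not widened to 95%, was at least 0.20 for every measured gene read from 1 spot, such as Itga6, F11r and Epcam. It reached 0.25 for Cldn23. For Cdh1 and Dsp, with 10 spots, it was 0.06. Once widened to 95%, that error is larger than the ± of each measured gene, so the ± understates the technical error that the software gives. Part of the LIFR KO array lay under stray signal, where the local background reached 25884 against a median of 23.5. One of the 46 probes, the brighter of the Cldn4 pair, lay at the edge of it, and none of the 38 genes was read from such a probe.

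Markers of the labelled cell type were present in part. Of 20 embryonic stem cell markers, 13 were above background on all arrays (65.0%), a share near the 63.6% of all named genes. Nanog was at 217, 329 and 316 and Pou5f1 at 22.7, 20.3 and 31.2 on the LIFR KO, gp130 KO and wildtype arrays, while Sox2, Zfp42, Dppa3, Fgf4 and Nr0b1 were above background on none. Of 3 Lifr probes, 1 was above background, at 29.97, 34.7 and 34.9, and the others, at 2.05 to 4.27, were not on any array, while the Il6st probe gave 369, 299 and 329 in the same order. Where these probes lie relative to the disrupted sequence is not given, so they check nothing. Of other cell types, 5 of 12 trophoblast markers, 2 of 10 endothelial markers and 5 of 8 blood cell markers were above background on all arrays. Their summed signals, before scaling, were 14218, 15397 and 12097 for trophoblast, 1211, 1290 and 1390 for endothelial and 1647, 1785 and 1997 for blood cell markers on the LIFR KO, gp130 KO and wildtype arrays, and their part in the junction ratios was not tested. The trophoblast marker Tfap2c was at least 2.25-fold lower in gp130 KO cells (8.80, not above background, against 22.1 in wildtype cells). Its signal on the LIFR KO array, 11.9, was not above background either. The bound is smaller there because the lowest signal above background was 16.7, against 9.66 on the gp130 KO array. Tfap2c therefore does not separate the knockouts. Of the 7 trophoblast markers compared in gp130 KO cells, 4 had a ratio above 0, and the median log2 ratio was 0.03.

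Of the 38 genes, 34 had a probe well above background on all 3 arrays (89.5%), against 63.6% of all named genes. The other 4 were claudins and were above background on none: Cldn1 (signals of 4.26, 2.46 and 2.75 on the LIFR KO, gp130 KO and wildtype arrays), Cldn2 (3.56, 3.80 and 4.92), Cldn6 (6.03, 12.2 and 6.17) and Cldn8 (3.80, 2.16 and 2.98). Cldn6 is known from embryonic epithelia and embryonic stem cells, and Cldn1 is a barrier claudin of the epidermis. No gene was above background on some arrays and not on others, so every ratio of these 34 genes rests on signals measured on both sides. In a bulk sample, fewer cells of one type and less RNA per cell cannot be told apart.

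**Figure D1:**
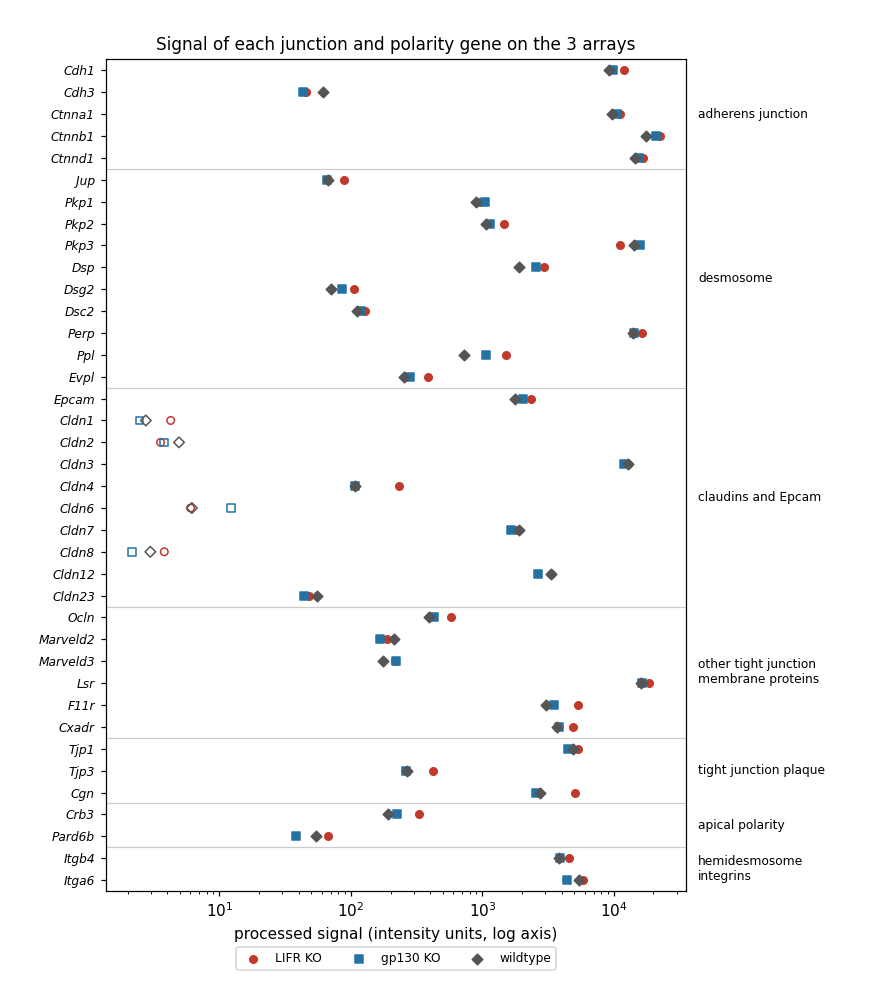
Processed signal (log axis, arbitrary brightness units) of each of the 38 genes on the LIFR KO array (red circles), the gp130 KO array (blue squares) and the wildtype array (grey diamonds), grouped by junction role, with open symbols for a probe not well above background. Only Cldn1, Cldn2, Cldn6 and Cldn8 have open symbols, and for most of the other genes the 3 symbols nearly coincide on this scale.

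Across the 34 measured genes, none was 2-fold higher and none 2-fold lower in LIFR KO than in wildtype cells, where 2.45% of 14505 genes were higher by 2-fold or more and 1.63% were lower by as much. With 34 genes, a count of 0 is close to what those shares give. At 1.5-fold, 5 genes were higher in LIFR KO cells (Cldn4, Ppl, Cgn, F11r and Crb3), where 6.2% of all genes were, and 1 was lower (Cdh3), where 7.56% were. The log2 ratio was above 0 for 24 of the 34 genes, against 42.7% of all genes, and its median was 0.14 (range -0.60 to 0.96) beside -0.03 over all genes. Such shares include genes above background on 1 array only, whose ratio is a bound that can be exactly 0. Over the 13088 genes measured on all arrays, the median LIFR KO ratio was also -0.03. The sign of this ratio was the same in every processing setting tried for 19 of the 34 genes, since normexp correction on all spots turned many of them. In gp130 KO cells none passed 2-fold, where 0.988% of 14876 genes were higher by that much and 0.787% lower, and none passed 1.5-fold, with 3.5% higher and 3.11% lower. The ratio to wildtype was above 0 for 23 of 34 genes, against 54.6% of all genes, and its median was 0.11 (range -0.48 to 0.57) beside 0.03. Both knockouts are set against the same wildtype array, so a high or low wildtype signal moves both ratios together.

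**Figure D2:**
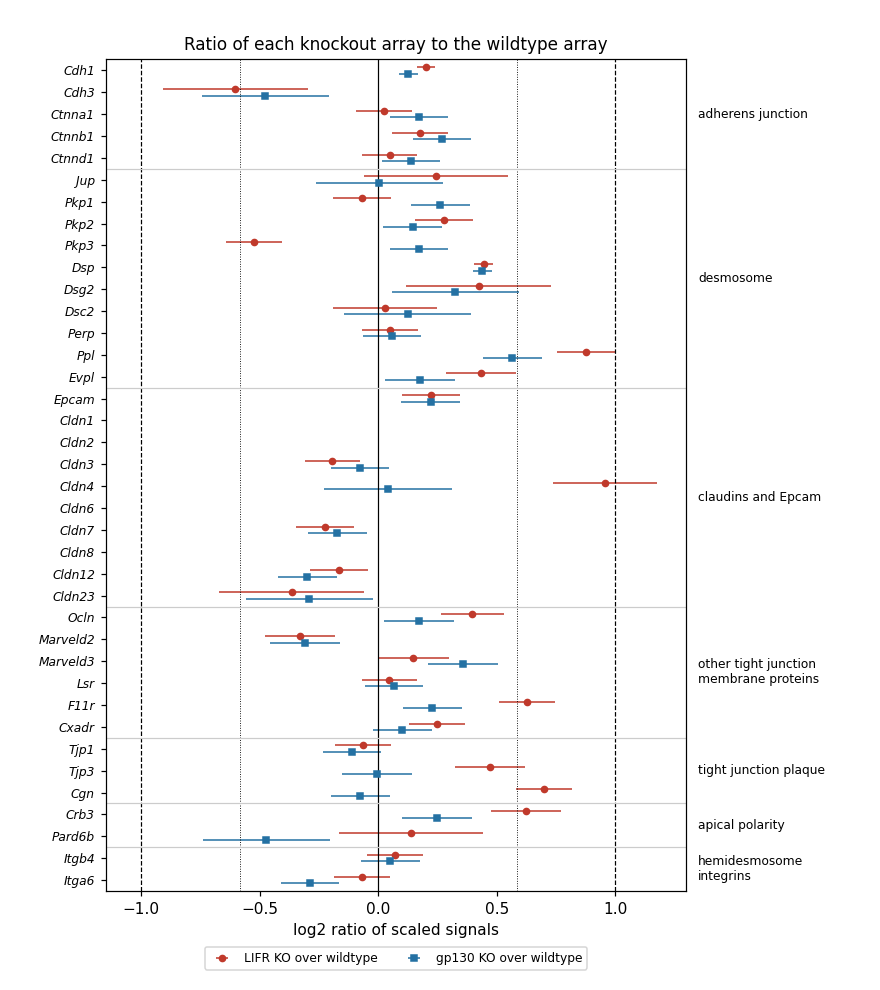
Log2 ratio of scaled signals for each measured gene, LIFR KO over wildtype (red circles) and gp130 KO over wildtype (blue squares), with bars for the 95% half-width from repeated spots, dashed lines at 2-fold and dotted lines at 1.5-fold. No gene reaches the 2-fold lines, Cldn4 in LIFR KO cells comes nearest at 0.96, and Ppl has the highest gp130 KO ratio at 0.57.

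In the adherens junction, the core complex was bright on all arrays and its ratios were small. Cdh1, which encodes E-cadherin, the cadherin that joins embryonic stem cells, had mean signals of 11916 on the LIFR KO array, 9836 on the gp130 KO array and 9179 on the wildtype array. It was printed as 10 spots on each array, which ranged over 11441 to 12483 in LIFR KO, 9424 to 10255 in gp130 KO and 8634 to 9553 in wildtype. After scaling, its log2 ratio to wildtype was 0.20 ± 0.04 in LIFR KO and 0.13 ± 0.04 in gp130 KO cells, differences of 1.15-fold and 1.09-fold that exceed the scatter of spots and cannot be set against any spread of cultures.

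The catenins that bind E-cadherin followed a narrow range. Ctnnb1, encoding beta-catenin, had signals of 22431, 20789 and 17570 on the LIFR KO, gp130 KO and wildtype arrays and ratios of 0.18 and 0.27 in LIFR KO and gp130 KO cells. Ctnna1, the alpha-catenin that links to actin, gave 0.02 and 0.17, and Ctnnd1, the p120-catenin that holds cadherins at the membrane, gave 0.05 and 0.14, in the same order. Cdh3, encoding P-cadherin, was the member of the group that was lower in both: its signals were 45.5 and 43.2 in LIFR KO and gp130 KO cells, against 61.3 in wildtype cells. Its log2 ratios were -0.60 ± 0.31 and -0.48 ± 0.27, or 1.52-fold and 1.39-fold lower, from a probe near the dim end of the measured range, and the LIFR KO ratio was 1.38 under normexp background correction fitted on all spots, stray signal included. It was short of 1.5-fold at -0.26 under normexp fitted without stray signal and at -0.44 under quantile normalisation. Cdh1 and Cdh3 are neighbours in the genome with no coding gene between them, and their ratios had opposite signs in both knockouts.

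Of the 10 desmosome genes, 8 had a ratio above 0 in LIFR KO cells (median 0.26), where 42.7% of all genes did, and 10 did in gp130 KO cells (median 0.18), where 54.6% did. The count of 10 includes Jup at 0.01, which was -0.02 and -0.03 under the normexp background corrections, and Dsg2, whose second probe was below 0. Ppl, encoding periplakin, a plakin that ties desmosomes to the cornified envelope and to intermediate filaments, had signals of 1509 in LIFR KO and 1056 in gp130 KO cells, against 727 in wildtype cells. The 3 signals are well separated, and the log2 ratios were 0.88 ± 0.12 (1.84-fold) in LIFR KO and 0.57 ± 0.12 (1.48-fold) in gp130 KO cells, the gp130 KO value being the highest of the 34 genes in that knockout. Evpl, encoding envoplakin, the partner with which periplakin dimerises, had signals of 388, 283 and 255 on the LIFR KO, gp130 KO and wildtype arrays and log2 ratios of 0.43 ± 0.15 and 0.18 ± 0.15.

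Dsp encodes desmoplakin, the plaque protein that anchors keratin filaments. Its 10 spots averaged 2930 (2749 to 3164) on the LIFR KO array and 2537 (2372 to 2711) on the gp130 KO array, against 1907 (1799 to 1973) on the wildtype array. Before scaling, the spots of each knockout did not overlap those of wildtype. They are technical repeats, which vary little on an array (median SD of the log2 signal 0.05 on each), and the share of all repeated probes without overlap was not taken. The scaled ratios were alike, 0.44 ± 0.04 in LIFR KO and 0.44 ± 0.04 in gp130 KO cells. A second Dsp probe was not well above background on any array. Dsg2, the desmoglein of simple epithelia, gave 0.42 ± 0.31 and 0.33 ± 0.27 from signals of 106, 86.1 and 70.1 on the LIFR KO, gp130 KO and wildtype arrays, and Dsc2, its desmocollin partner, gave 0.03 and 0.12. A second Dsg2 probe, with signals of 37.6 and 25.6 against 27.1 in wildtype cells, gave 0.30 ± 0.43 in LIFR KO and -0.06 ± 0.55 in gp130 KO cells, so the sign in gp130 KO cells depended on the probe.

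The plakophilins, armadillo proteins that cluster desmosomal cadherins, did not share a direction in LIFR KO cells. Pkp3 had signals of 11169 on the LIFR KO array, 15746 on the gp130 KO array and 14231 on the wildtype array. Its log2 ratio was -0.52 ± 0.12 in LIFR KO and 0.17 ± 0.12 in gp130 KO cells. Pkp2 gave 0.28 and 0.15, and Pkp1 gave -0.07 and 0.26, in the same order. Jup, the plakoglobin shared by desmosomes and adherens junctions, had log2 ratios of 0.24 ± 0.31 and 0.01 ± 0.27, both inside the scatter of spots, and Perp, a tetraspan membrane protein of desmosomes, gave 0.05 and 0.06.

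**Figure D3:**
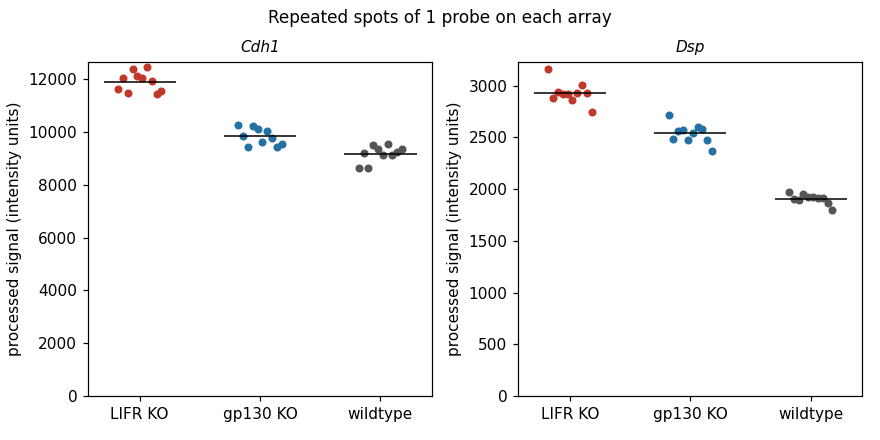
Processed signal of each of the 10 spots of Cdh1 and of Dsp on the LIFR KO, gp130 KO and wildtype arrays (points, left to right, vertical axes from 0), with the mean of the spots. The 10 Dsp spots of either knockout array lie above all 10 of the wildtype array before scaling, and the spread within an array is technical.

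Among Epcam and the claudins, 6 of 10 genes were measured, and 4 of the 6 had a ratio below 0 in each knockout. The other 2 were above 0, where 42.7% of all genes were in LIFR KO and 54.6% in gp130 KO cells. Epcam, a homophilic adhesion protein that stabilises claudins, had signals of 2339, 2031 and 1775 on the LIFR KO, gp130 KO and wildtype arrays and log2 ratios of 0.22 ± 0.12 in each knockout. The 4 below 0 in both knockouts were Cldn3 (-0.19 in LIFR KO and -0.08 in gp130 KO cells), Cldn7 (-0.22 and -0.17), Cldn12 (-0.16 and -0.30) and Cldn23 (-0.37 and -0.29). Cldn3 and Cldn7 are sealing claudins of simple epithelia, with signals of 12722, 11980 and 12889 for Cldn3 and of 1837, 1656 and 1902 for Cldn7 on the LIFR KO, gp130 KO and wildtype arrays. Cldn23 was dim, with signals of 48.2, 44.1 and 55.0 on the LIFR KO, gp130 KO and wildtype arrays, and its LIFR KO ratio was 1.46 under normexp on all spots.

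Cldn4, another claudin of simple epithelia, stood at the other end. Its signal was 234 in LIFR KO and 108 in gp130 KO cells, against 107 in wildtype cells, which made it the one gene of the 34 nearest to 2-fold. The log2 ratios were 0.96 ± 0.22 (1.94-fold) in LIFR KO and 0.04 ± 0.27 in gp130 KO cells. The second Cldn4 probe read 322 and 150, against 130 in wildtype cells, and gave 1.14 ± 0.15 (2.20-fold) and 0.24 ± 0.15. That probe's local background was 36 on the LIFR KO array, at the edge of the stray signal, so the gene was read from the other. Under quantile normalisation, in the authors' series matrix and as the mean of its probes, Cldn4 was just past 2-fold in LIFR KO cells. Cldn3 lies beside Cldn4 with no coding gene between them and had a ratio of the opposite sign in LIFR KO cells.

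Of the other tight junction membrane proteins, F11r encodes JAM-A, an immunoglobulin-like adhesion protein that helps place the junction. Its signal was 5324 in LIFR KO and 3511 in gp130 KO cells, against 3057 in wildtype cells, a log2 ratio of 0.63 ± 0.12 (1.54-fold) in LIFR KO and 0.23 ± 0.12 in gp130 KO cells. Under normexp on all spots the LIFR KO ratio was 0.20. Ocln, encoding occludin, gave 580, 431 and 390 on the LIFR KO, gp130 KO and wildtype arrays and ratios of 0.40 ± 0.13 and 0.17 ± 0.15. A second Ocln probe gave 0.25 and -0.19, so its sign in gp130 KO cells depended on the probe. Marveld2, the tricellulin found where cells meet in threes, lies beside Ocln in the genome and had ratios of -0.33 ± 0.15 and -0.31 ± 0.15 in LIFR KO and gp130 KO cells. Lsr, the angulin that brings tricellulin to those corners, gave 0.05 and 0.07.

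Cxadr, which encodes the coxsackie and adenovirus receptor, was read by probes to separate transcripts, and these differed most. The brighter gave 4905, 3856 and 3662 on the LIFR KO, gp130 KO and wildtype arrays, with ratios of 0.25 ± 0.12 and 0.10 ± 0.12. The probe to the other transcript gave 308 and 207 in LIFR KO and gp130 KO cells, against 146 in wildtype cells, with ratios of 0.90 ± 0.15 (1.87-fold) and 0.52 ± 0.15 (1.44-fold). Marveld3, a MARVEL-domain relative of occludin, was also read by probes to separate transcripts, with ratios of 0.15 ± 0.15 and -0.24 ± 0.31 in LIFR KO cells and 0.36 ± 0.15 and 0.25 ± 0.22 in gp130 KO cells. Over the 6 genes with more than 1 probe above background on all arrays, the probes of a gene differed by 0.13 to 0.65 in the LIFR KO ratio, beside a median half-width of 0.12 for a single probe.

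**Figure D4:**
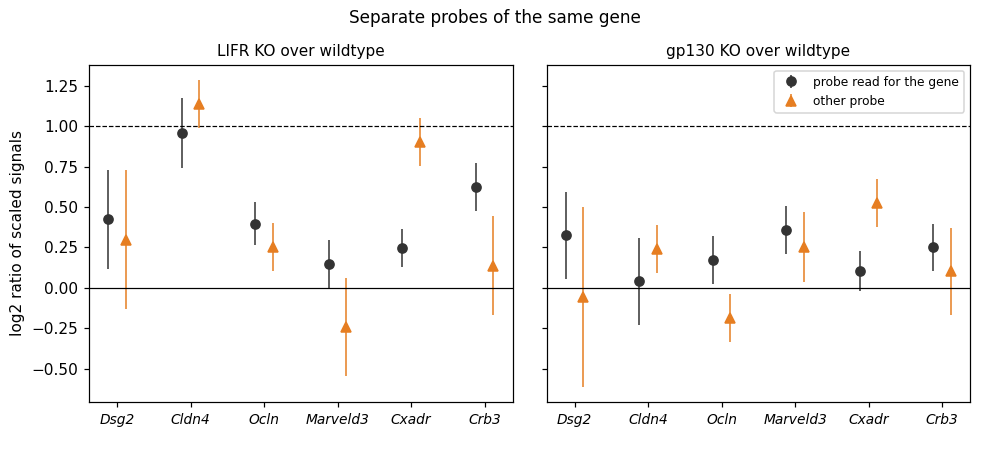
Log2 ratios of the 6 genes with several measured probes, for LIFR KO over wildtype and gp130 KO over wildtype, with dark circles for the probe that was read, orange triangles for the other probe and bars for the 95% half-width. The Cxadr probes lie farthest apart in LIFR KO cells (0.25 and 0.90), and the Marveld3 pair straddles 0 there.

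In the plaque, the ZO proteins and cingulin differed from each other. Cgn, encoding cingulin, which ties the junction to actin and myosin, had a signal of 5026 in LIFR KO and 2555 in gp130 KO cells, against 2744 in wildtype cells. Its log2 ratio was 0.70 ± 0.12 (1.62-fold) in LIFR KO, or 0.30 under normexp on all spots, and -0.08 ± 0.12 in gp130 KO cells. Tjp3, encoding ZO-3, gave 419, 262 and 268 on the LIFR KO, gp130 KO and wildtype arrays and ratios of 0.47 ± 0.15 and -0.00 ± 0.15. Tjp1, encoding ZO-1, the scaffold that every tight junction uses, gave 5293, 4456 and 4905 in the same order and ratios of -0.07 ± 0.12 and -0.11 ± 0.12. Cgn and Tjp3 were thus high on the LIFR KO array alone, and Tjp1 was not.

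Of the polarity genes, Crb3 encodes the Crumbs protein of most epithelia and Pard6b a Par6 adaptor that joins Cdc42 to atypical protein kinase C. Crb3 had signals of 332 in LIFR KO and 223 in gp130 KO cells, against 191 in wildtype cells, and log2 ratios of 0.62 ± 0.15 (1.54-fold) and 0.25 ± 0.15. Its second probe, with signals of 105 and 89.2 against 84.7 in wildtype cells, gave 0.14 ± 0.31 and 0.10 ± 0.27, so the 1.5-fold difference rests on 1 of its probes. Pard6b was dim, at 67.4 and 38.4 against 54.3 in wildtype cells, with ratios of 0.14 ± 0.31 in LIFR KO and -0.47 ± 0.27 in gp130 KO cells. The hemidesmosome integrins, which bind laminin, were under 1.5-fold from wildtype: Itgb4 gave 4541, 3896 and 3834 on the LIFR KO, gp130 KO and wildtype arrays (ratios 0.07 and 0.05), and Itga6 gave 5866, 4385 and 5452 (ratios -0.07 ± 0.12 and -0.29 ± 0.12). The lower Itga6 value in gp130 KO cells exceeded the spot scatter and kept its sign in every setting tried.

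Where the knockouts were set against each other, none of the 34 genes was 2-fold higher or lower in gp130 KO than in LIFR KO cells, where 1.3% of 14721 genes were higher by that much and 1.89% lower. At 1.5-fold, Pkp3 was higher in gp130 KO cells (log2 ratio 0.70 ± 0.11, where 5.52% of all genes were), and Cldn4 (-0.92 ± 0.22), Cgn (-0.77 ± 0.11) and Pard6b (-0.61 ± 0.31) were lower, where 4.43% were. Under normexp fitted without stray signal Pard6b was at -0.18, and under normexp on all spots Cgn was at -0.31, both short of 1.5-fold. The ratio was above 0 for 14 of 34 genes, against 59.6% of all genes, with a median of -0.03 beside 0.05. This comparison shares its arrays with the other comparisons and adds no independent measurement. By scaled signal, the LIFR KO array was the highest of the 3 for 17 of the 34 genes and the wildtype array the lowest for 21 (61.8%). Over the 13088 genes measured on all arrays, the LIFR KO array was the highest for 29.7% and the wildtype array the lowest for 35.5%.

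**Figure D5:**
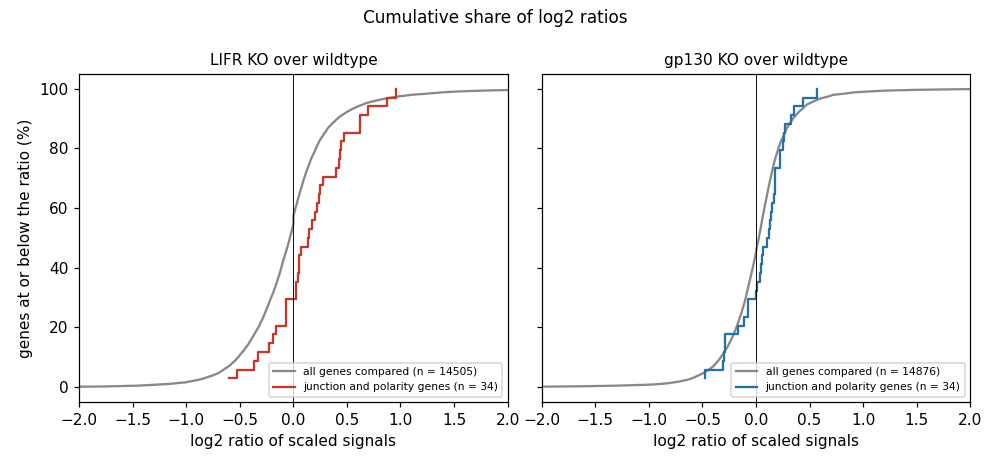
Cumulative share of genes (vertical axis, percent) by log2 ratio to wildtype, for LIFR KO and for gp130 KO, with the 34 junction genes as 1 curve and all genes compared as the other. The curve of the 34 listed genes is shifted to the right in LIFR KO cells, with a median of 0.14 against -0.03 for all genes, and less so in gp130 KO cells, with 0.11 against 0.03. Junction genes outside the list are not in that curve, and their LIFR KO medians ran to both sides of 0.

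Promoter windows are shown for genes that were higher and genes that were not in LIFR KO cells, with the E-box that SNAI and ZEB repressors are known to bind in epithelial genes such as Cdh1. RefSeq windows of assembly GRCm38.p6, cut to the 250 bases before the transcript start, were at hand for 21 of the 38 genes (30 windows), and Cdh1, Ppl, Cdh3 and Pkp3 were not among them. They are written 5′ to 3′ on the gene's strand, and capitals mark CAGGTG or its reverse complement CACCTG, or, in Cgn, a match to AACNNGTT, the core bound by grainyhead-like factors. Cldn4 (chr5:134946935-134947184, minus strand), F11r (chr1:171437311-171437560, plus), the first of the Crb3 windows (chr17:57061951-57062200, plus) and Cgn (chr3:94786483-94786732, minus) are shown for genes over 1.5-fold higher in LIFR KO cells, and Cldn3 (chr5:134985964-134986213, plus), the neighbour of Cldn4, and the second window of Cldn7 (chr11:69965171-69965420, plus) for claudins that were below wildtype, 1 without and 1 with the E-box.
Cldn4: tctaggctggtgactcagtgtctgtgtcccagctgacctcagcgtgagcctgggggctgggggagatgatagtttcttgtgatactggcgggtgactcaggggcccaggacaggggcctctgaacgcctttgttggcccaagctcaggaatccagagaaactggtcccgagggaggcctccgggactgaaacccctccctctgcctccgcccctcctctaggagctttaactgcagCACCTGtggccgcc
F11r: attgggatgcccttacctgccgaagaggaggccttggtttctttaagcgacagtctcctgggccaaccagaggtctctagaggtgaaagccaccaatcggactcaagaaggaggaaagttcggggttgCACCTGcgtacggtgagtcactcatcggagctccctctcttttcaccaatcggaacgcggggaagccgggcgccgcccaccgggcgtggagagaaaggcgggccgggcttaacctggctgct
Crb3: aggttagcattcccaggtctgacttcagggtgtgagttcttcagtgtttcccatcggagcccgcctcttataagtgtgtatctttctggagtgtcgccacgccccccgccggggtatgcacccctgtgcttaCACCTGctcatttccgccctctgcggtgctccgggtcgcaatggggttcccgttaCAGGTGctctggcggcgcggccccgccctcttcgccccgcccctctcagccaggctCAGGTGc
Cgn: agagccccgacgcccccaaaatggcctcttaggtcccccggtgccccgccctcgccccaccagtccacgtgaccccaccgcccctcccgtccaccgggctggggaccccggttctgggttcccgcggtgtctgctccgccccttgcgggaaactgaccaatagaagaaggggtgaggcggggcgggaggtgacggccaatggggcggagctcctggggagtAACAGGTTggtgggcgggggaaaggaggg
Cldn3: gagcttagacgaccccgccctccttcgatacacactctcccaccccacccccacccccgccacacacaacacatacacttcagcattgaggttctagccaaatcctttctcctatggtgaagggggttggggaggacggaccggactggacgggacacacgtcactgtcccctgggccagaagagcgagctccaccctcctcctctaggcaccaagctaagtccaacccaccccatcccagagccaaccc
Cldn7: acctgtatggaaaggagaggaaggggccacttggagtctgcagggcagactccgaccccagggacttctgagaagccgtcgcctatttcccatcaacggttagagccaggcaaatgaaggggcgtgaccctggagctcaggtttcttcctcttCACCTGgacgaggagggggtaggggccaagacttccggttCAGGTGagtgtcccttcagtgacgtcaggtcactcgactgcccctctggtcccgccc

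The E-box begins 14 bases before the start in Cldn4, 122 before it in F11r, 118, 63 and 7 before it in Crb3, and 97 and 57 before it in Cldn7, while Cgn and Cldn3 have none in these letters. Searched on both strands, CAGGTG was in 12 of the 30 junction windows (40.0%), belonging to 10 of 21 genes, against 17.2% of all 32851 windows of that length. The windows of a gene can overlap, as those of Crb3 do. In a split made after the values were seen, the 9 measured genes with the E-box had LIFR KO ratios of -0.22 (Cldn7) to 0.96 (Cldn4), 8 of them above 0. The 9 without it had ratios of -0.33 (Marveld2) to 0.70 (Cgn), 5 of them above 0, where 42.7% of all genes were. In gp130 KO cells 6 of the 9 with it and 4 of the 9 without it were above 0, where 54.6% of all genes were. The motif too was chosen with earlier results of these data known, and the share above 0 among all genes with the E-box was not taken. These counts therefore only describe the listed genes, and whether the E-box goes with the ratio was not tested. Lsr, with the E-box at 249, 219, 151 and 69 bases before the start, was at 0.05. AACNNGTT was in 1 of 30 windows, that of Cgn, against 3.64%. The GC box GGGCGG was in 23 of 30 (76.7%) against 32.7%, and TATAAA in 5 of 30 (16.7%) against 12.4%. Such matches are letters in a window, and nothing in these data measures what binds there.

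Snai1, which encodes one of those E-box repressors and belongs to the list of mesenchymal markers, had a signal of 3186 in LIFR KO and 691 in gp130 KO cells, against 661 in wildtype cells, or 4.27-fold higher in LIFR KO cells. Zeb2, which encodes another, was lower in both knockouts. Its signals were 637 in LIFR KO and 538 in gp130 KO cells, against 842 in wildtype cells, or 1.49-fold and 1.54-fold lower. Zeb1 was above background on the gp130 KO array alone. Besides Snai1, the mesenchymal marker past 2-fold in LIFR KO cells was Col1a1, a fibrillar collagen (signals of 257, 92.9 and 70.4 on the LIFR KO, gp130 KO and wildtype arrays, 3.23-fold). Of 18 mesenchymal markers, 11 were above background on all arrays (61.1%, against 63.6% of all named genes), and Snai2, Cdh11 and Pdgfrb were above background on none. The summed signal of the list, before scaling, was 194618, 179788 and 163490 on the LIFR KO, gp130 KO and wildtype arrays. The median log2 ratio after scaling was 0.00 in LIFR KO and 0.16 in gp130 KO cells. The part of these markers in the junction ratios was not tested.

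Of 14 other claudins on the arrays, 6 were compared in LIFR KO cells, and Cldn19, a claudin of kidney and eye, was 2.47-fold lower there and 1.71-fold lower in gp130 KO cells (signals of 260 and 326 against 568 in wildtype cells). Of 7 other desmosome genes, which include the epidermal desmogleins and desmocollins, 1 was measured, Cdsn, which encodes corneodesmosin, and the other 6 were above background on no array. Among 14 other adherens junction genes compared in LIFR KO cells, Ctnnd2, a neural p120 relative, was at least 2.35-fold higher (27.9 against a wildtype probe not above background). Among 16 other tight junction genes, Esam, an endothelial adhesion protein, was at least 2.76-fold higher in LIFR KO and at least 2.77-fold higher in gp130 KO cells, again from a wildtype probe not above background. None of 18 other polarity genes (median ratios 0.09 in each knockout), 12 hemidesmosome and laminin genes (-0.09 in LIFR KO and -0.12 in gp130 KO cells) and 10 gap junction genes (-0.02 and -0.01) passed 1.5-fold in either knockout.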

How the data were processed

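Cy3-labelled cRNA from total RNA of LIFR KO, gp130 KO and wildtype cells was hybridised to 1 array each, per the labels. The headers name array design 026655 and Feature Extraction 11.0.1.1 with protocol GE1_1100_Jul11, and the submitters' processing notes name version 9.1. The deposited intensity of a spot is, per the file headers, its processed signal, background-subtracted by the software and not normalised between arrays. The deposited flags of 0 or 1 mark spots well above background, saturated spots (0 here) and outliers. The authors' series matrix holds log2 values whose column medians are equal, and the method is not given in the sources used here.

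Outlier spots were left out, the spots of a probe were averaged, and arrays were compared by log2 signal after subtracting each one's 75th percentile. Accessions were matched without versions to a RefSeq gene table of GRCm38.p6, which named 27234 of 39429 probes (69.1%), and no array coordinates are given. Each gene's value came from its brightest probe outside stray signal, meaning a local background over 1.5 times the array's median, a limit set after the arrays were seen. Genes above background on 1 or both arrays of a comparison entered it. Where 1 array was below, the fold is "at least" and is set against the lowest signal above background on that array (16.7 in LIFR KO, 9.66 in gp130 KO, 10.5 in wildtype) or the dim probe's own if higher. Of the probes, 58.3% were above background in LIFR KO, 65.5% in gp130 KO and 64.3% in wildtype, and the number of arrays limits the precision. The half-width uses the median SD of repeated spots at a similar signal. With 1 array a group no test was run, and calls are folds of 2 or 1.5.

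The genes, the gene lists and the motifs were chosen with earlier results of these data known. Full values are given for genes past 1.5-fold in any comparison, for those whose probes disagree and for a well-known gene of each role, and from each other list up to 4 genes past 2-fold in a knockout. Nanog, Pou5f1 and Zeb2 are given as well. Alternatives were normexp background correction (offset 50, limma 3.58.1 in R 4.3.3, on median intensities because the files carry no mean intensity), other scalings, the series matrix, other filters, probes and thresholds. The calculations were tested on simulated data (pandas 2.3.3, numpy 2.4.6).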

Additional observations from a re-analysis of the deposited data

How the results depend on the processing

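In LIFR KO against wildtype, 1 gene was at least 2-fold higher, instead of 0, under quantile normalisation, with the authors' series matrix, with the mean of all probes, and with a stray-signal limit of 2 times the median, an alternative chosen after seeing the data. At the 1.5-fold threshold 5 were higher and 1 lower, and in gp130 KO against LIFR KO 1 was higher and 3 lower. Without a filter on dim probes, 1 gene (Cldn6, above background on no array) was higher in gp130 KO than in wildtype and than in LIFR KO cells. Normexp fitted on all spots gave 6 higher and 1 lower in LIFR KO against wildtype, 1 higher and 6 lower in gp130 KO against LIFR KO, and a median of 0.13 there instead of -0.03.

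The sign of the ratio was the same in all settings tried for 19 of 34 genes in LIFR KO and 31 of 34 in gp130 KO against wildtype, and for 16 of 34 between the knockouts. Cldn4, Ppl, Cgn, F11r and Crb3 were above 0 in LIFR KO cells in each setting, with Cldn4 between 0.70 and 1.37. Cdh3 was below 0 there except under normexp on all spots (1.38). Over all genes, LIFR KO against wildtype had 356 at least 2-fold higher and 236 lower. The counts were 420 and 176 under quantile normalisation, 418 and 176 with the series matrix, 112 and 63 under normexp fitted without stray signal, 3296 and 94 under normexp on all spots, 243 and 177 with both arrays above background, 237 and 170 with the mean of probes, and 617 and 1017 without the filter. In gp130 KO against wildtype they were 147 and 117 in the main values, 9 and 33 and then 10 and 33 under those normexp settings, 78 and 66 with both arrays above background, 60 and 49 with the mean of probes, and 660 and 591 without the filter. In gp130 KO against LIFR KO they were 191 and 278 in the main values, 145 and 324 under quantile normalisation, 147 and 322 with the series matrix, 35 and 74 and then 47 and 3244 under those normexp settings, 124 and 173 with both arrays above background, 119 and 163 with the mean of probes, and 976 and 534 without the filter. No paired analysis was possible because each group was 1 array. Genes near background, such as Cdh3, Cldn23 and Pard6b, carry the widest error.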
